A study of Mus musculus with 6 samples.

Results

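The genes of type 2 helper T (Th2) cytokines and of the proteins around them were followed in regulatory T cells that lack Blimp1. The set holds 10 genes taken by symbol: the cytokine genes Il4, Il5, Il13, Il3, Il9 and Csf2, the factor gene Gata3, the receptor genes Il1rl1 and Il4ra, and Areg. Of these, 8 have a probe named in the annotation used here, 1 probe each, and 7 were among the 9593 genes tested. Areg, which codes for the growth factor amphiregulin, and Il1rl1, which codes for the IL-33 receptor ST2, have no probe under their symbols there and are not analysed here.

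RNA was measured in 6 samples of CD4+ Foxp3-GFP+ peripheral regulatory T (pTreg) cells on Illumina MouseWG 6v2 arrays, 3 of Blimp1-deficient (CKO) and 3 of Blimp1-sufficient (Ctrl) cells. CKO cells came from C57BL/6 mice with Prdm1flox/flox and CD4-Cre+, which carried Thy1.2 and a Foxp3-GFP reporter. Ctrl cells came from Prdm1+/+ mice that also had CD4-Cre+, with Thy1.1 and the same reporter. Naive CD4+ cells of both genotypes, sorted from pooled lymph nodes and spleens of donors in a single stated age range, had been mixed in equal parts and transferred into RAG1-/- mice, which have no T or B cells of their own. GFP+ cells were sorted weeks later. CD4-Cre acts in all developing T cells, so the CKO cells had lost Blimp1 before they became regulatory cells. CKO and Ctrl replicates of a number are treated as a pair: the labels give those of replicates 2 and 3 a shared day, and those of replicate 1 lie on a shared slide. The labels of replicates 2 and 3 carry the letters P+I, which may stand for phorbol ester and ionomycin, and those of replicate 1 name no stimulus. One field of the labels calls the cells iTreg and another peripheral Treg.

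Th2 cells help against worms and drive allergy. IL-4 and IL-13 act through receptors that share IL-4Rα and through STAT6, IL-5 acts on eosinophils, and IL-3 and GM-CSF (the product of Csf2) act on myeloid cells through a shared beta chain. GATA3 is the factor that sets the Th2 programme, and it is also found in regulatory T cells of tissues, where ST2 and amphiregulin are known from repair. Blimp1, the product of Prdm1, is a transcriptional regulator of both effector and regulatory T cells.

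Of the members, 5 lie on mouse chromosome 11 in the order Il4, Il13, Il5, Csf2 and Il3 (RefSeq, GRCm38.p6). No protein-coding gene lies between Il4 and Il13 or between Csf2 and Il3, 1 lies between Il13 and Il5 (Rad50), and 6 lie between Il5 and Csf2. Gata3 lies on chromosome 2, Il4ra on 7, Il9 on 13, Areg on 5 and Il1rl1 on 1. All 10 members have a promoter window in the RefSeq table. The 250 bases before the start are shown for the cytokine genes of this cluster whose values differ most in direction or size. These genes share a cluster and yet had unlike fold change estimates, although differences between genes were not tested. Capitals mark matches to the GATA motif (NGATAN, with A or T as its opening letter and A or G as its closing letter, on either strand). The windows are chr11:53634703-53634952 (minus strand) for Il13, chr11:53720544-53720793 (plus strand) for Il5, chr11:53618666-53618915 (minus strand) for Il4 and chr11:54267280-54267529 (minus strand) for Il3.
Il13: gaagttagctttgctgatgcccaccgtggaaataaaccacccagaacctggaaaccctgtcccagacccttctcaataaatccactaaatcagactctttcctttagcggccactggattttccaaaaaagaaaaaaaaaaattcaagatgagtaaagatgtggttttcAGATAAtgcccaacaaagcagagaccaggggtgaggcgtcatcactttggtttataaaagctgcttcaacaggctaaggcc
Il5: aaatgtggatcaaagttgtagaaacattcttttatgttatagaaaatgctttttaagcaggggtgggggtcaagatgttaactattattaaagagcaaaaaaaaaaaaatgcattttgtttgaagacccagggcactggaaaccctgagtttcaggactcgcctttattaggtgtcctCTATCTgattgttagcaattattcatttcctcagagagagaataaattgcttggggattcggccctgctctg
Il4: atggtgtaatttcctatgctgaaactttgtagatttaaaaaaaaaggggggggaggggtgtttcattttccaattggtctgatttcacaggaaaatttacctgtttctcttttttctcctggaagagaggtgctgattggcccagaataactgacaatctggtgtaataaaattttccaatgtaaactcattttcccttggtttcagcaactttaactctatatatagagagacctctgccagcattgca
Il3: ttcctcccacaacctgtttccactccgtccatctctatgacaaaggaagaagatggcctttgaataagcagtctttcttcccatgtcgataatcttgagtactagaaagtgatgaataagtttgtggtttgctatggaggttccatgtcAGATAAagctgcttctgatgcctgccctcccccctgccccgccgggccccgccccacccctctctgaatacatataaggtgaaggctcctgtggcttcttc
The Il13, Il5 and Il3 windows hold 1 GATA match each, which begins 81, 72 and 101 bases before the start. The Il4 window holds none, although a second annotated Il4 start has 1 match at 80 bases. A GATA match occurs in 26.5% of 32851 mouse promoter windows of this length. The short NFAT core GGAAA, read on both strands, occurs 4 times in the Il13 window, 2 times in that of Il5, 5 times in that of Il4 and 1 time in that of Il3, and 55.6% of all windows hold it. The core GAAAG, part of the site known for PRDM1, occurs 1 time in the Il13 window and 2 times in the Il3 window, with 51.5% of all windows holding it. These are letter matches and not measured sites.

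Prdm1 had intensities of 561, 341 and 704 in CKO replicates 1 to 3, against 18.9, 50.9 and 49.2 in Ctrl replicates 1 to 3. The sources used here do not place this probe inside or outside the deleted exons, so it cannot serve as a check of the knockout. The other Prdm1 probe was above background on no array. Foxp3, the gene the cells were sorted on, had 433, 165 and 216 in CKO cells, against 480, 212 and 141 in Ctrl cells on its brightest probe. A dimmer Foxp3 probe, also above background on all 6 arrays, had 30.9, 19.0 and 37.8 in CKO cells, against 67.9, 35.7 and 48.6 in Ctrl cells, and was lower in CKO cells in each pair, so the probes of Foxp3 differ. The background level, set from 1504 probes of olfactory and vomeronasal receptors, genes that T cells do not use (their 95th percentile), lay between 6.18 and 9.55 per array, and 32.3% to 38.3% of the probes exceeded it. All 8 measured CD4 T cell markers were above background on every array, with summed intensities of 20253 to 24694 in CKO and 23413 to 31338 in Ctrl cells. Of 8 regulatory T cell markers, 4 (Ctla4, Tnfrsf18, Ikzf2 and Izumo1r) were lower in CKO cells at the study's thresholds, which are an unadjusted p under 0.05 and at least a 1.5-fold change. With the pair as a block Il2ra met them too, and Ctla4 passed an adjusted p of 0.05 (limma adjusted p = 0.043, against 0.18 without the block), as Izumo1r did in both fits. An adjusted p under 0.05 was reached by 0.271% of all genes without the block and by 1.91% with it. The sums of the regulatory T cell markers were 9013 to 12678 in CKO and 15646 to 23498 in Ctrl cells. Of the 8 CD4 T cell markers, 0 met the study's thresholds, and with the pair as a block 1 did, lower in CKO cells. Over all genes tested, 4.34% were lower and 3.09% higher at these thresholds, and 7.28% and 4.75% with the block. In RNA of bulk cells, fewer cells of a kind and less RNA per cell cannot be told apart.

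Among the cytokines, Il13 and Il5 were lower in CKO cells at the study's thresholds, 2.92-fold and 2.33-fold, while Il4 and Csf2 overlapped between the groups and Il3, which also overlapped, was the higher value of each pair in CKO cells. Gata3 was almost equal in both groups. In limma (adjusted over 9593 genes), 0 of 7 members passed an adjusted p of 0.05, against 0.271% of all genes tested. Before adjustment, 2 of 7 members had a limma p under 0.05, against 773 of 9593 genes. At the study's thresholds 2 of 7 members were lower, against 4.34% of all genes, and 0 were higher, against 3.09%. The groups did not overlap, with CKO lower, for 1 member, Il13, against 7.08% of all genes. The same gene was the 1 member lower in CKO in all 3 pairs, against 18.1% of all genes. With the pairs as a block 0 of 7 members passed an adjusted p of 0.05, against 1.91% of all genes. The block also left the members at the study's thresholds at 2, Il13 and Il5, while over all genes 7.28% were then lower and 4.75% higher at them. The median log2 fold change (CKO minus Ctrl) of the 7 members was -0.43, and that of all genes was 0.02. That median is the value of Il4ra, which lay near background. It was -0.50 over the other 6 members, -0.28 over all 7 with an offset of 16 in place of the floor, and between -1.07 and -0.22 with arrays or pairs left out.

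**Figure D1:**
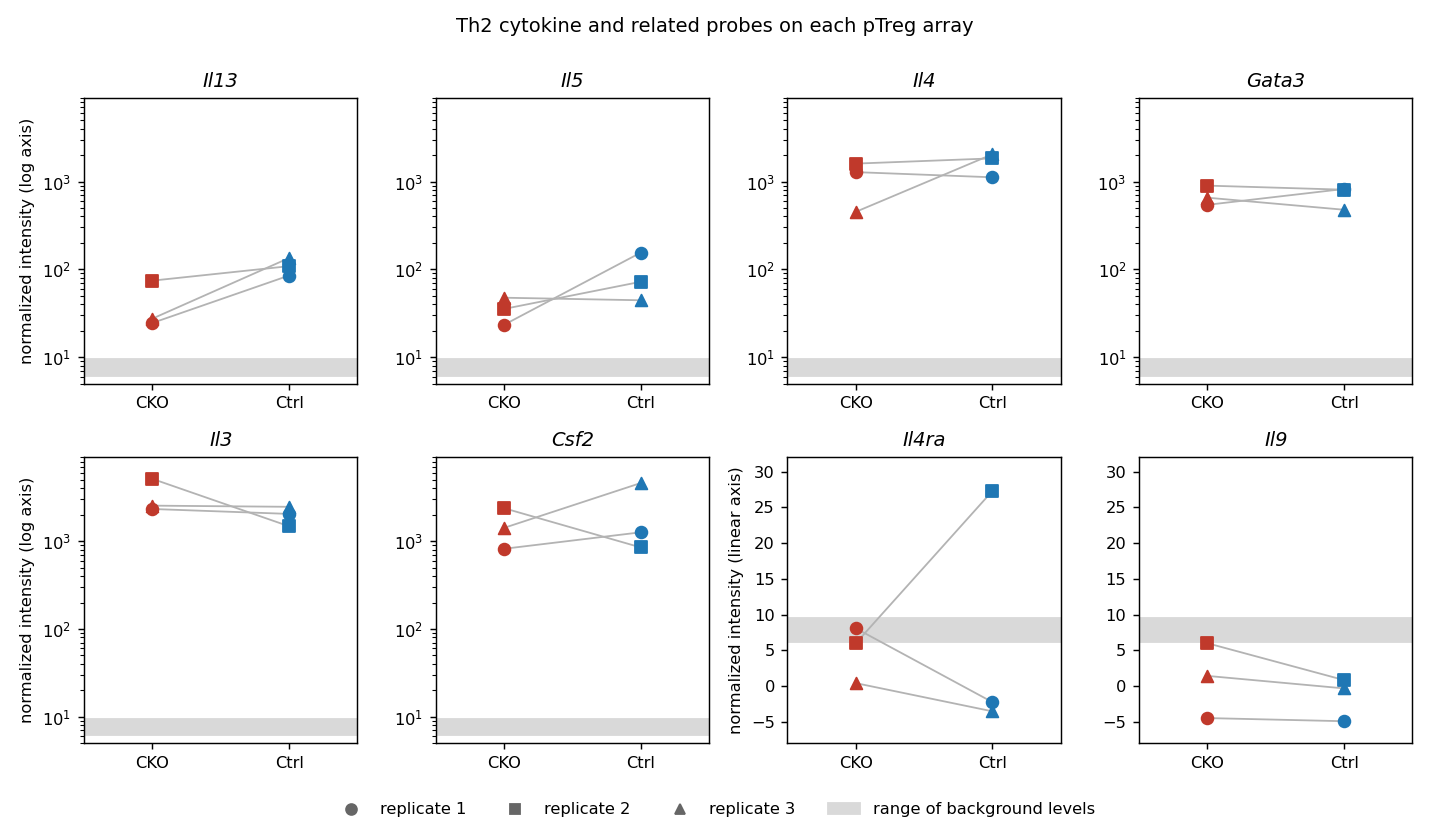
Normalized intensity of the probe of each of 8 members on the 6 arrays, CKO on the left and Ctrl on the right of each panel, with grey lines joining the arrays of a pair and a grey band for the range of background levels (6.18 to 9.55). The axes are logarithmic except for Il4ra and Il9, which have values below 0. All 3 CKO values of Il13 lie below all 3 Ctrl values, and the other panels overlap.

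Il13, the cytokine of mucus production and of smooth muscle responses in allergy, had intensities of 24.6, 74.5 and 27.5 in CKO replicates 1, 2 and 3, against 85.1, 109 and 135 in Ctrl replicates 1, 2 and 3. Every CKO array was below every Ctrl array, and CKO replicate 2 was the highest of its group and close to the lowest Ctrl array. The means were 42.2 ± 28.0 in CKO and 110 ± 24.8 in Ctrl cells (SD, n = 3 each). The log2 fold change was -1.54 (SE 0.43, 95% interval -2.55 to -0.54), with an unadjusted limma p of 0.0077 that ranked 252nd among 9593 genes (adjusted p = 0.29). Within pairs CKO was 3.46-fold, 1.46-fold and 4.89-fold lower in pairs 1, 2 and 3. The difference in pair 2 was thus the smallest. With the pair as a block the adjusted p was 0.073. Without both arrays of pair 3 the log2 fold change was -1.16 and no longer met the study's thresholds.

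Il5, the growth factor of eosinophils, had 23.4, 35.5 and 47.6 in CKO cells, against 155, 72.3 and 44.5 in Ctrl cells. The groups overlapped because Ctrl replicate 3 lay below CKO replicate 3, and Ctrl replicate 1 was the brightest array. The means were 35.5 ± 12.1 in CKO and 90.7 ± 57.6 in Ctrl cells (SD, n = 3 each). The log2 fold change was -1.22 (SE 0.47, 95% interval -2.31 to -0.12), with an unadjusted limma p of 0.033 (adjusted p = 0.51). The log2 differences within pairs 1, 2 and 3 were -2.73, -1.03 and 0.10. The size therefore hung on pair 1: without both of its arrays the log2 fold change was -0.48, and Il5 no longer met the study's thresholds. It also missed them when CKO replicate 1 or 2 or Ctrl replicate 1 or 2 alone was left out.

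Il4, the cytokine that turns naive T cells to the Th2 fate and B cells to IgE, was bright on every array. It had 1279, 1599 and 452 in CKO cells, against 1117, 1834 and 2042 in Ctrl cells. The arrays of replicates 1 and 2 were mixed between the groups, and CKO replicate 3 stood below the other 5 arrays. The log2 fold change was -0.73 (SE 0.49, 95% interval -1.85 to 0.40, limma adjusted p = 0.83), and within pairs it was 0.20, -0.20 and -2.18. The 4.52-fold difference of pair 3 made nearly all of it, since without that pair the value was -0.001.

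Il3, a growth factor of basophils and mast cells, had 2320, 5108 and 2533 in CKO cells, against 2039, 1475 and 2457 in Ctrl cells. CKO was the higher array of each of the 3 pairs, yet in pairs 1 and 3 by little, with log2 differences of 0.19, 1.79 and 0.04. The groups overlapped. The log2 fold change was 0.67 (SE 0.36, 95% interval -0.16 to 1.5, limma adjusted p = 0.73), and without pair 2 it was 0.11.

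Csf2, the gene of GM-CSF next to Il3, had 818, 2367 and 1415 in CKO cells, against 1260, 847 and 4581 in Ctrl cells. CKO was lower in pairs 1 and 3 and higher in pair 2, and the arrays of each group spread more widely than those of the median gene, with log2 SDs of 0.77 in CKO and 1.27 in Ctrl cells beside medians over all genes of 0.32 and 0.33. The log2 fold change was -0.28 (SE 0.64, 95% interval -1.77 to 1.21, limma adjusted p = 0.98), an interval that leaves room for changes over 2-fold in either direction. Il9, a growth factor of mast cells, was not above background on any array, at -4.47 to 5.99 in CKO and -4.91 to 0.84 in Ctrl cells, and was not tested.

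Gata3 had 543, 898 and 655 in CKO cells, against 823, 807 and 477 in Ctrl cells. The values of the groups were interleaved, with CKO lower in pair 1 and higher in pairs 2 and 3. The means were 699 ± 182 in CKO and 703 ± 195 in Ctrl cells (SD, n = 3 each). The log2 fold change was 0.00 (SE 0.31, 95% interval -0.71 to 0.72), an interval that leaves room for changes somewhat over 1.5-fold in either direction. Il4ra, the receptor chain of IL-4 and IL-13, had 8.08, 5.99 and 0.42 in CKO cells, against -2.25, 27.3 and -3.53 in Ctrl cells. It exceeded background on 1 CKO array (replicate 1) and 1 Ctrl array (replicate 2), so its log2 fold change of -0.43 (SE 0.50) rests on values set to the background level.

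**Figure D2:**
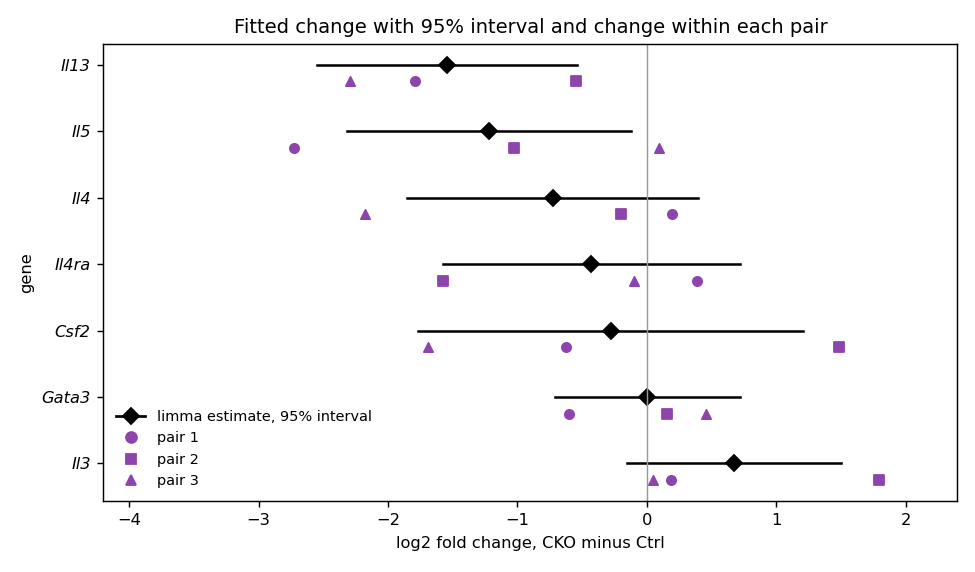
Log2 fold change (CKO minus Ctrl) of the 7 members tested, with the limma estimate as a diamond, its 95% interval as a line, and the difference within each pair as a purple symbol below it. The intervals of Il13 (-2.55 to -0.54) and Il5 (-2.31 to -0.12) lie below 0 and the other 5 include 0. The order of the 3 pairs differs from gene to gene.

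Pair 1, whose labels name no stimulus, was set against pairs 2 and 3, whose labels carry P+I. In limma, an interaction term for this split passed an adjusted p of 0.05 in 0 genes and had an unadjusted p under 0.05 in 233 of 9593. Il5 was among these 233, with a fold change 2.26 log2 units higher in pairs 2 and 3 than in pair 1 (limma adjusted p = 1.0), a call that fails the correction. Slide and stimulus label split the arrays in the same way and cannot be told apart. The median intensity of the measured early genes of T cell stimulation was 2832, 2741 and 1673 in CKO cells, against 3430, 3266 and 2342 in Ctrl cells. This median was lower in CKO cells in each pair, but the summed intensity of these genes was 116539, 108105 and 95210 in CKO cells, against 133697, 100768 and 137878 in Ctrl cells, and so was higher in CKO cells in pair 2. The part of stimulation in the cytokine values was not tested. Of 24 such genes tested, 2 were lower at the study's thresholds (the chemokine genes Ccl3 and Ccl4) and 1 was higher (Xcl1, 19562, 10913 and 17263 in CKO against 4246, 3729 and 7316 in Ctrl cells). With the pair as a block 6 met the thresholds, Jun, Egr1 and Nfkbid being added as lower. In that fit Xcl1 and Ccl3 passed an adjusted p of 0.05 (limma adjusted p = 0.027 for Xcl1 and 0.049 for Ccl3), against 1.91% of all genes. Over all genes, 4.34% were lower and 3.09% higher at the thresholds, and 7.28% and 4.75% with the block.

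**Figure D3:**
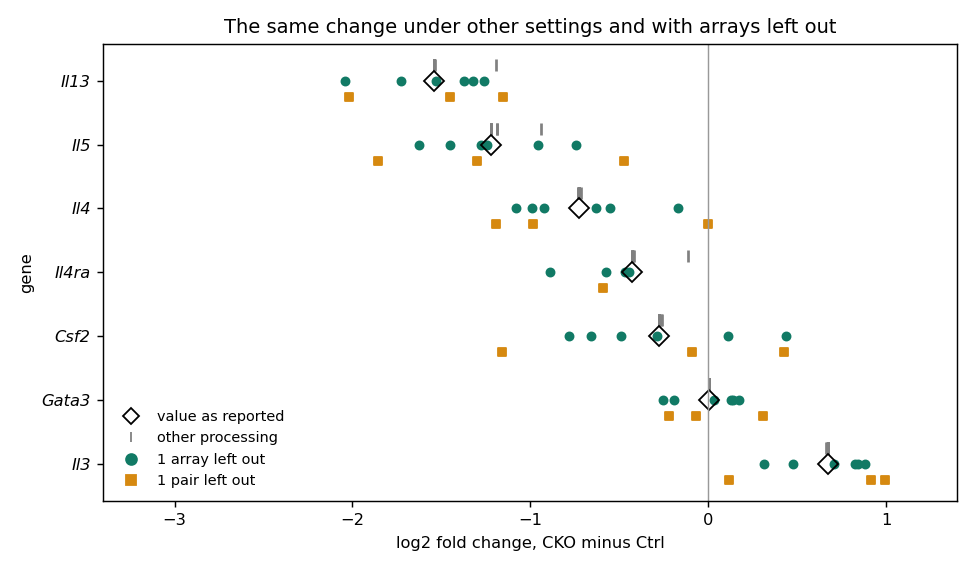
Log2 fold change (CKO minus Ctrl) of the 7 members as reported (open diamonds), under other processing (grey ticks), with 1 array left out (green circles) and with both arrays of 1 pair left out (orange squares). Il13 stays between -2.04 and -1.16, whereas Il4 spans -1.19 to -0.001 and Csf2 and Gata3 lie on both sides of 0. Il4ra has fewer points because it had no value where it failed the filter.

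Cells other than T cells also make or answer these cytokines, and their markers were read on the same arrays. Of 11 myeloid genes with a probe, 4 were above background on every array and 3 on none (Itgam, Adgre1 and Itgax). Their summed intensity was 12338, 1674 and 22094 in CKO cells, against 22668, 2471 and 31565 in Ctrl cells, most of it from the neutrophil genes S100a8 and S100a9. The sum was lower in CKO cells in each pair, by 1.84-fold, 1.48-fold and 1.43-fold in pairs 1, 2 and 3. The median of the tested myeloid genes was 248, 43.0 and 132 in CKO cells, against 667, 21.8 and 159 in Ctrl cells, and so was higher in CKO cells in pair 2. Among Ctrl arrays, replicate 3 had the highest myeloid sum and the highest Il13 value. Ctrl replicate 2 had the lowest myeloid sum of its group and a higher Il13 value than Ctrl replicate 1. Among CKO arrays, replicate 3 had the highest myeloid sum with an Il13 value of 27.5. CKO replicate 2 had the lowest sum of its group and the highest Il13 value (74.5). Il5 in replicate 3 was the lowest of the Ctrl arrays (44.5) and the highest of the CKO arrays (47.6). Of the 7 myeloid genes tested 0 met the study's thresholds, and with the pair as a block 4 did (S100a8, S100a9, Fcgr3 and C1qb, all lower). Lower at these thresholds were 4.34% of all genes, and 7.28% with the block. Of 18 genes of mast cells, basophils and eosinophils, 3 were above background on every array (Hdc, Kit and Prg2) and 10 on none, among them Ms4a2, Il5ra and Siglecf. Their sum was 629, 362 and 1009 in CKO cells, against 1120, 409 and 1471 in Ctrl cells. Prg2, which codes for the major basic protein of eosinophils, had 67.8, 87.3 and 15.5 in CKO cells, against 158, 77.0 and 155 in Ctrl cells (log2 fold change -1.45, limma adjusted p = 0.63), and met the study's thresholds with the pair as a block. The sums for group 2 innate lymphoid cells were 5730 to 6976 in CKO and 5360 to 6577 in Ctrl cells, carried by genes that T cells share, while Nmur1 and Il17rb were above background on no array. This sum was higher in CKO cells in pairs 1 and 3 and lower in pair 2. Of 6 tested genes of this list, 1 was lower in CKO cells at the study's thresholds. With the pair as a block 1 passed an adjusted p of 0.05, also lower, against 1.91% of all genes in either direction. For B cells the sums were 33.1 to 43.7 in CKO and 33.4 to 58.2 in Ctrl cells. For CD8 T and NK cells they were 565 to 954 in CKO and 709 to 1079 in Ctrl cells. The part of any of these cells in the Il13 and Il5 values was not tested.

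The tested genes whose values followed a member most closely over the 6 arrays were found by the root mean square difference of centred log2 values. For Il13 they were Cd226 (0.21), Ppp3ca (0.24) and Gngt2 (0.26), beside a median of 0.99 over all genes. Cd226 is an adhesion receptor of T and NK cells and Ppp3ca codes for the catalytic subunit of calcineurin. For Il5 they were Arg1 (0.33), Neurl3 (0.35) and C1qb (0.36), beside a median of 0.95. Arg1 and C1qb are genes of myeloid cells, were above background on 2 and 3 of the 6 arrays and share the bright Ctrl replicate 1 with Il5. For Il4 they were Zc3hav1 (0.20), Actn2 (0.22) and Pex5 (0.24), beside 0.79. For Gata3, which varied less, they were Ptpn1, 6030458C11Rik and Cd44 (0.10 each), beside 0.49. With only 6 arrays such likeness is a description.

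Of 12 tested genes that carry IL-4 and IL-13 signals, 2 met the study's thresholds, both lower in CKO cells, with a median log2 fold change of -0.26. With the pair as a block 5 met them, 4 lower (Irs2 and Il4i1 beside Jak1 and Jak3) and 1 higher (Stat6). The shares over all genes were 4.34% lower and 3.09% higher, and 7.28% and 4.75% with the block. Jak1, a kinase bound to the receptor, had 24, 21.3 and 18.8 in CKO against 25.3, 65.2 and 53.4 in Ctrl cells, and Ctrl replicate 1 lay close to the CKO arrays. The other Jak1 probes were above background on no array. Jak3, the kinase of the common gamma chain, had 190, 201 and 142 in CKO against 229, 313 and 277 in Ctrl cells. Stat6, the factor they activate, had 186, 155 and 136 in CKO against 153, 94.3 and 80.2 in Ctrl cells, groups that overlapped although CKO was higher in each pair (log2 fold change 0.59, limma adjusted p = 0.71). Socs1, an inhibitor of these kinases, differed by 0.54 on the log2 scale, less than 1.5-fold.

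Of 21 tested factors and partners of the Th2 programme, 3 met the study's thresholds, 2 with CKO lower and 1 with CKO higher. The median log2 fold change was -0.01. In the blocked fit 5 met them, Satb1 and Tbx21 being added as lower. Among all genes 4.34% were lower and 3.09% higher at these thresholds, and 7.28% and 4.75% in the blocked fit. Ecm1, a secreted protein known to let Th2 cells leave lymph nodes, had 91.3, 150 and 77.0 in CKO cells, against 429, 599 and 284 in Ctrl cells. On this Ecm1 probe the groups did not overlap, and the log2 fold change was -2.04 (SE 0.36, limma adjusted p = 0.095, and 0.0082 with the pair as a block). A dimmer Ecm1 probe had 2.18, 7.02 and 17.1 in CKO cells, against 20.4, 30.7 and 16.6 in Ctrl cells. Its groups overlapped, with CKO lower in pairs 1 and 2 and slightly higher in pair 3. Notch1, a receptor whose signal can switch on Gata3 and Il4, had 128, 127 and 231 in CKO against 309, 352 and 330 in Ctrl cells (log2 fold change -1.09, limma adjusted p = 0.26). Riox2, a nucleolar protein, was higher in CKO cells by 0.63 on the log2 scale, and Tbx21, the Th1 factor that opposes GATA3, had a log2 fold change of -0.64 with overlapping groups (limma adjusted p = 0.67, and 0.21 with the pair as a block).

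Of 11 tested genes of IL-33 and alarmin signalling, 2 met the study's thresholds, both higher in CKO cells, although the median log2 fold change was -0.37. Sigirr, an inhibitory member of the IL-1 receptor family, had 356, 191 and 241 in CKO cells, against 153, 96.8 and 67.4 in Ctrl cells. Its arrays did not overlap (log2 fold change 1.35, SE 0.37, limma adjusted p = 0.28, and 0.041 with the pair as a block). Il1rap, the chain that ST2 pairs with, had 48.3, 41.1 and 35.3 in CKO against 30.5, 19.1 and 22.6 in Ctrl cells (log2 fold change 0.80, limma adjusted p = 0.38). In the blocked fit 3 met the thresholds, the added gene being Crlf2, the receptor of the alarmin TSLP, which was lower. Of the receptors of IL-3, IL-5, GM-CSF and IL-9, 4 were tested and 0 met the thresholds, with a median log2 fold change of -0.68, while with the pair as a block 2 met them (Csf2ra and Csf2rb2, both lower). Of the genes of the epidermal growth factor receptor, its ligands and their release, through which amphiregulin acts, 5 were tested and 0 met them, with a median of -0.005, and with the pair as a block 1 did (Rhbdf2, lower). Beside these lists, 4.34% of all genes were lower and 3.09% higher at the thresholds, and 7.28% and 4.75% with the block.

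Of 9 tested surface and effector genes of Th2 cells, 2 met the study's thresholds, 1 in each direction, and the median log2 fold change was 0.08. The shares over all genes at these thresholds were 4.34% lower and 3.09% higher. Tnfsf11, which codes for the cytokine RANKL, had 1187, 1058 and 752 in CKO cells, against 544, 474 and 376 in Ctrl cells, with no overlap (log2 fold change 1.10, SE 0.27, limma adjusted p = 0.22, and 0.040 with the pair as a block). Ccr8, a chemokine receptor of Th2 and regulatory T cells, had 700, 982 and 780 in CKO against 1470, 1212 and 1096 in Ctrl cells (log2 fold change -0.62, limma adjusted p = 0.50).

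Of 8 tested neighbours of the cytokine genes on their chromosomes, 0 met the study's thresholds, and their median log2 fold change was -0.003. At these thresholds 4.34% of all genes were lower and 3.09% higher. Rad50, which holds the locus control region of the Th2 cytokines between Il5 and Il13, had means of 142 ± 38.0 in CKO and 139 ± 18.5 in Ctrl cells (SD, n = 3 each). Irf1, next to Il5 on the other side and a factor of the interferon response, had 1475, 1986 and 2004 in CKO cells, against 2783, 2554 and 2561 in Ctrl cells. Its groups did not overlap, with a log2 fold change of -0.54 (limma adjusted p = 0.57), and a second Irf1 probe had 660 ± 111 in CKO and 1253 ± 92.2 in Ctrl cells (SD, n = 3 each).

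Other T helper cytokines were read beside the Th2 genes. Of 13 tested, 3 met the study's thresholds, 1 with CKO lower and 2 with CKO higher, and the median log2 fold change was -0.23. In the blocked fit 6 met them, Il17a being added as higher and Tgfb1 and Il12a as lower. All genes tested had shares of 4.34% lower and 3.09% higher, and 7.28% and 4.75% in the blocked fit. Il10, the anti-inflammatory cytokine that Blimp1 is known to switch on, had 128, 99.2 and 106 in CKO cells, against 5935, 3203 and 5904 in Ctrl cells, and fell by 5.45 on the log2 scale (limma adjusted p = 0.0010). Il17f, a cytokine of Th17 cells, had 1806, 912 and 561 in CKO against 190, 264 and 311 in Ctrl cells (log2 fold change 1.96, limma adjusted p = 0.16). Lta, which codes for lymphotoxin alpha, had 625, 873 and 503 in CKO against 208, 271 and 306 in Ctrl cells (log2 fold change 1.33, limma adjusted p = 0.16).

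**Figure D4:**
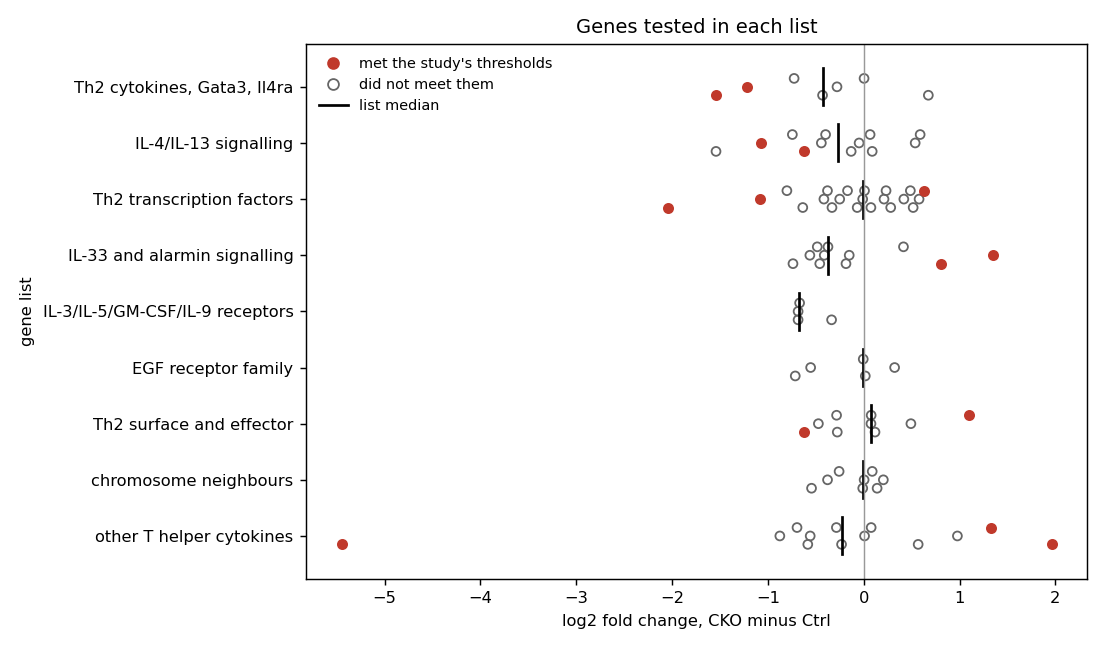
Log2 fold change (CKO minus Ctrl) of each tested gene, 1 row per gene list, with filled red points for genes at the study's thresholds, open points for the others and a black line at the list median. The Th2 members hold 2 filled points, Il13 and Il5, both below 0. The far left point among the other T helper cytokines is Il10 at -5.45.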

How the data were processed

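RNA of sorted pTreg cells was measured on 3 CKO and 3 Ctrl arrays, which the paper calls biological replicates, and the genotype label set each sample's group. P-values measure the spread between these samples. The deposited table holds linear intensity values that the authors took from Genome Studio and quantile normalized. Column medians of 2.84 on slide 1 and 2.64 to 2.65 on slide 2 show that slides differed after that step, and 35.4% to 36.0% of values lie below 0, which shows background subtraction. Effector T cell arrays of the study were not used here.

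The 6 columns were then quantile normalized jointly. Values under an array's background level were raised to it, log2 was taken, and probes above background on at least 2 arrays were kept, the brightest per gene. Of 45281 probes, 34885 have 1 gene symbol, 18 several and 10378 none, and symbols of 34807 were checked against the RefSeq table of GRCm38.p6. The array files name no build, so coordinates come from that table alone. The comparison used limma 3.58.1 under R 4.3.3 (lmFit and eBayes, no block, as the methods name none), with Benjamini-Hochberg adjustment over 9593 genes. Steps were checked on simulated data. The number of arrays limits the precision. Summed marker levels take values below 0 as 0.

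Replicate numbers pair the samples: beside the shared day and slide, the correlation over genes of group-centred values of same-numbered CKO and Ctrl samples was 0.51, 0.49 and 0.56 in pairs 1, 2 and 3. Genes are not independent replicates. Results of the fit with the pair as a block are given where they change a call.

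Named genes are all members, Prdm1, Foxp3, up to 4 genes of each list with the smallest p, and the 3 genes nearest in pattern to Il4, Il5, Il13 and Gata3. Rad50, Prg2 and the other cell markers named by their background status lie outside this rule and were picked with their values in view. The members and lists were chosen with earlier results of these data known. Alternatives tried were the pair or slide as a block, the deposited normalization, scaling to one median, other floors and filters, the mean of probes, and leaving out each array or pair.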

Additional observations from a re-analysis of the deposited data

How the results depend on the processing

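Under all 18 alternatives Il13 kept its direction (log2 fold change -2.04 to -1.16), and it missed the study's thresholds in 1, without both arrays of pair 3 (-1.16). Il5 kept its direction (-1.86 to -0.48) and missed the thresholds in 6, each of which left out arrays. Il4 (-1.19 to -0.001) and Il3 (0.11 to 0.99) kept their directions, and Il3 met the thresholds when dim probes were not filtered. Csf2 turned positive without 1 array (range -0.78 to 0.44, at 0.11 without CKO replicate 1 and 0.44 without Ctrl replicate 3) and without pair 3 (0.43). Gata3, at 0.00 as reported, turned negative without CKO replicate 2 (-0.19), without Ctrl replicate 3 (-0.25; range over arrays left out -0.25 to 0.17), without pair 2 (-0.071) and without pair 3 (-0.22). Il4ra had a value in 12 alternatives and failed the filter in the others.

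The 2 members at the study's thresholds were 1 to 2 with 1 array left out, 1 without pair 1, 1 without pair 2, 1 without pair 3, and 3 with no filter. At an adjusted p of 0.05 the count was 0 in 17 alternatives and 1, Il13 at 0.047, with no filter. Over all genes, 26 passed an adjusted p of 0.05, against 183 with the replicate block, 16 with the slide as a block, 43 with an offset of 16 in place of the floor, 150 with no filter, 1 to 10 with 1 array left out, 0 without pair 1, 1 without pair 2 and 0 without pair 3. At the study's thresholds 712 genes became 1154 with the replicate block. The paper reported fewer pTreg genes at the same thresholds, so the calls made here need not match its list. The pairing changed no call of a member. The cause of these shifts was not tested. Signal over background limits Il4ra and Il9, which lie at it.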
